A study of Mus musculus with 12 samples.

Results

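The set comprised 8 genes of cholesterol synthesis that are textbook targets of the sterol regulatory element binding protein SREBP-2, followed here in mouse retina: Hmgcs1, Sqle, Idi1, Fdps, Fdft1, Lss, Cyp51 and Dhcr7. They were chosen by name for their place in the pathway, and not by a measured value, and the 8 symbols match 9 of the 37991 gene entries in the deposited tables, since Hmgcs1 is listed under 2 identifiers. Whole retina of male mice aged 8 weeks was sequenced as polyadenylated RNA in 12 libraries. The 4 groups of 3 libraries were F0 C57BL/6J (an inbred laboratory strain), F0 Cast/EiJ (an inbred strain derived from wild mice), F1 B6xCast (C57BL/6J father and Cast/EiJ mother) and F1 CastxB6 (Cast/EiJ father and C57BL/6J mother). No animal received a treatment or carried an engineered allele, and each library is a pool of 6 to 8 retinas, so a value describes a pool and not an eye. Expression is given in count equivalents, the read pairs assigned to a gene after normalisation between libraries. An F1 library has 1 value for its C57BL/6J allele and 1 for its Cast/EiJ allele, each scaled to the size of a whole library.

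Cholesterol is built from acetyl-CoA. Hmgcs1 makes the precursor of mevalonate, and after phosphorylation by Mvk and Pmvk and decarboxylation by Mvd, Idi1 and Fdps make and join the isoprene units into farnesyl diphosphate. Fdft1 commits these to squalene, Sqle oxidises squalene, Lss closes the rings to form lanosterol, Cyp51 demethylates lanosterol, and Dhcr7 carries out the last reduction to cholesterol. When membranes of the endoplasmic reticulum run low in sterol, Scap carries SREBP-2 to the Golgi, where proteases release its active part, and this raises transcription of the whole set together with Insig1. Because an F1 nucleus exposes both alleles to the same regulators, a difference between F1 alleles is a cis effect, while a difference between F0 strains that the F1 alleles do not show is a trans effect.

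Promoter sequence is shown for Hmgcs1, which held the sole perfect match to a sterol regulatory element among the members, and for Cyp51 and Lss, whose windows held none. RefSeq had a promoter entry, on GRCm38.p6, for 5 of the 8 members (Hmgcs1, Idi1, Lss, Cyp51 and Dhcr7). The 250 bases before each start were searched on both strands for TCACNCCAC (sterol regulatory element), its looser form CACNCCAC (which overlaps every match of the former), CCAAT (bound by NF-Y), GGGCGG (bound by Sp1) and CACGTG (E-box). Capitals mark the matches, each sequence reads 5′ to 3′ on the gene's own strand, and bases inside the deposited gene model were left off. On NCBI37, the build of the deposited tables, the Hmgcs1 sequence lies on the unplaced scaffold NT_166323 from 112905 to 113154 on the minus strand, the Cyp51 sequence at chr5:4104747-4104947 on the minus strand, and the Lss sequence at chr10:75994100-75994332 on the plus strand.
Hmgcs1: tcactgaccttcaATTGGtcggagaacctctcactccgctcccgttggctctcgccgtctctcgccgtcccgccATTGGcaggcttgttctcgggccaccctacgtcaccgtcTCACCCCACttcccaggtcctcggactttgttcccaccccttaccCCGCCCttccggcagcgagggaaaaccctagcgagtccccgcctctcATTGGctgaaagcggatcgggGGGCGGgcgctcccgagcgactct
Cyp51: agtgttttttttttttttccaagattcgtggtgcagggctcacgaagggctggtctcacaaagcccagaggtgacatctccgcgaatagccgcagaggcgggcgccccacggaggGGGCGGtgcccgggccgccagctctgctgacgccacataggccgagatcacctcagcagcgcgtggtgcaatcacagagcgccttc
Lss: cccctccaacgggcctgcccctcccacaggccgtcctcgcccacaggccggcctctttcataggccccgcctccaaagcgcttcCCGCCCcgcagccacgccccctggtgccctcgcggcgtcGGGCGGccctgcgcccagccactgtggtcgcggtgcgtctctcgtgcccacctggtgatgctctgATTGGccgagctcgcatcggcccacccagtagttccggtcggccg

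The Hmgcs1 window held 1 sterol regulatory element, 3 CCAAT boxes and 2 GC boxes. The sterol regulatory element has its first base 137 bases before the start, and 1.05% of 32851 mouse promoters hold such a match. No other member window matched it, nor the looser form, which 5.29% of promoters hold. CCAAT was found 2 times in Idi1 and 1 time each in Lss and Cyp51, against a share of 33.8% of promoters, and GGGCGG in every member window except that of 1 of the Dhcr7 starts, against 32.7% of promoters. Dhcr7 has 3 RefSeq starts, and its CCAAT boxes, 2 in number, precede the last of them. The Cyp51 CCAAT box lies 29 bases before the RefSeq start, within the deposited gene model and so outside the sequence shown. A missing match says only that these letters are not in the window.

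All members except Hmgcs1 were expressed at a level that could be tested. Per length, as FPKM over the 6 F0 libraries, the median was 24.4 for Fdps (18.7 to 27.3), 18.1 for Fdft1 (17.1 to 18.9), 11.2 for Sqle (9.99 to 12.0), 10.9 for Lss (9.57 to 12.7), 9.97 for Dhcr7 (9.44 to 13.8), 9.05 for Cyp51 (7.49 to 10.2) and 5.0 for Idi1 (2.79 to 7.18). In this order the ranges of neighbours overlapped, except between Fdft1 and Sqle and between Cyp51 and Idi1. Unique hits, which are read pairs with 1 possible gene of origin and, in F1, 1 possible allele, summed to between 8158534 and 12363291 per library. The retina labels were met by the rod markers, 5 genes including Gnat1 and Nrl, whose summed level was 281600 to 318100 count equivalents across the F0 libraries, with none called between the strains.

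Hmgcs1 could not be measured. Its 2 entries, ENSMUSG00000079301 and ENSMUSG00000079828, lie on 2 unplaced NCBI37 scaffolds (NT_166323 from 95169 to 112793 and NT_110857 from 114701 to 132325, both on the minus strand), and the 17625 bases of the copies differ by 0 mismatches. Neither entry had a unique hit in any library. The count equivalents of the first entry ran from 0.0138 to 2990, with a median posterior SD of 9.42 on the natural log scale, where the other members had medians of 0.043 to 0.20. The sum of the 2 entries was 236, 1510 and 90.2 in F0 C57BL/6J and 692, 385 and 1900 in F0 Cast/EiJ. The F1 alleles spread further, from 0.0329 to 2990. No strain, allele or cross order is given for Hmgcs1, and being off the autosomes it was in none of the tests.

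**Figure D1:**
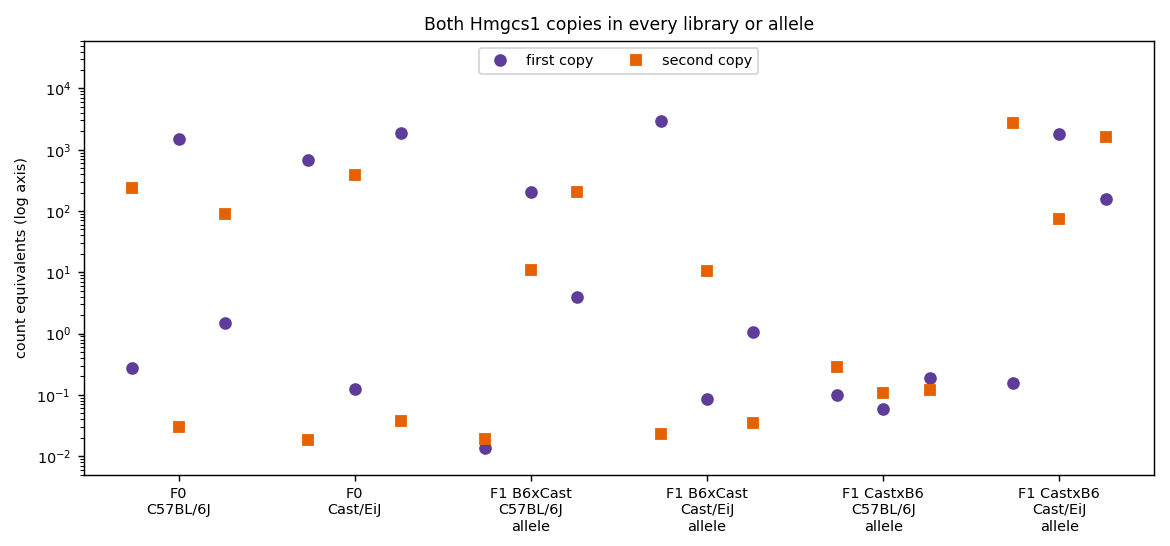
Count equivalents of the 2 Hmgcs1 entries in each F0 library and F1 allele, on a log axis. The first entry spreads from 0.0138 to 2990 and the second from 0.0182 to 2730, with no separation of the F0 strains.

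Between the F0 strains, Cyp51 and Idi1 were lower in Cast/EiJ and the other 5 testable members did not pass the test. Cyp51 (ENSMUSG00000001467, chr5:4081145-4104746, minus strand) measured 757, 733 and 762 count equivalents in F0 C57BL/6J and 558, 605 and 629 in F0 Cast/EiJ. The groups did not overlap. The mean was 751 ± 15.5 (SD, n = 3) against 597 ± 36.1 (SD, n = 3), a log2 difference of -0.33 (SE 0.077, limma adjusted p = 0.0109), or 1.26-fold lower. Idi1 (ENSMUSG00000058258, chr13:8884747-8891697, plus strand) measured 324, 317 and 333 in F0 C57BL/6J and 118, 225 and 220 in F0 Cast/EiJ, also without overlap. Its log2 difference was -0.85 (SE 0.22, adjusted p = 0.0186), or 1.80-fold lower. The Idi1 call was lost without F0 C57BL/6J replicate 2 (adjusted p = 0.0518) or replicate 3 (0.0537), and with edgeR on unique hits (log2 difference -0.51, adjusted p = 0.117).

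The remaining members overlapped between the strains. Fdps (chr3:88897514-88905881, minus strand) measured 451, 503 and 587 in F0 C57BL/6J and 403, 556 and 588 in F0 Cast/EiJ, a log2 difference of -0.0051 (SE 0.15, adjusted p = 0.984). Fdft1 (chr14:63763990-63796630, minus strand) measured 1010, 952 and 996 against 950, 923 and 1000, a difference of -0.042 (SE 0.070, adjusted p = 0.673). Sqle (chr15:59146632-59162747, plus strand) measured 645, 554 and 620 against 582, 526 and 603, a difference of -0.088 (SE 0.092, adjusted p = 0.496). Lss (chr10:75994333-76019883, plus strand) measured 1190, 996 and 998 against 1080, 946 and 894, a difference of -0.12 (SE 0.10, adjusted p = 0.372). For Dhcr7 (chr7:151009050-151034315, plus strand), which acts after them, 433, 494 and 433 stood against 405, 406 and 438, a difference of -0.12 (SE 0.091, adjusted p = 0.337).

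All 7 testable members had a negative F0 difference, with a median log2 of -0.12 (-0.10 without Idi1), beside 46.4% negative and a median of 0.03 over all 14452 genes tested. The 2 called members stand beside a background of 33.8% of genes called in either direction and 16.6% called lower in Cast/EiJ. Strain groups without overlap and with Cast/EiJ lower were found in 2 of the 7, beside 22.7% of all genes tested. With 7 members, 1 called gene more or less spans the shares of genes called or not overlapping.

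**Figure D2:**
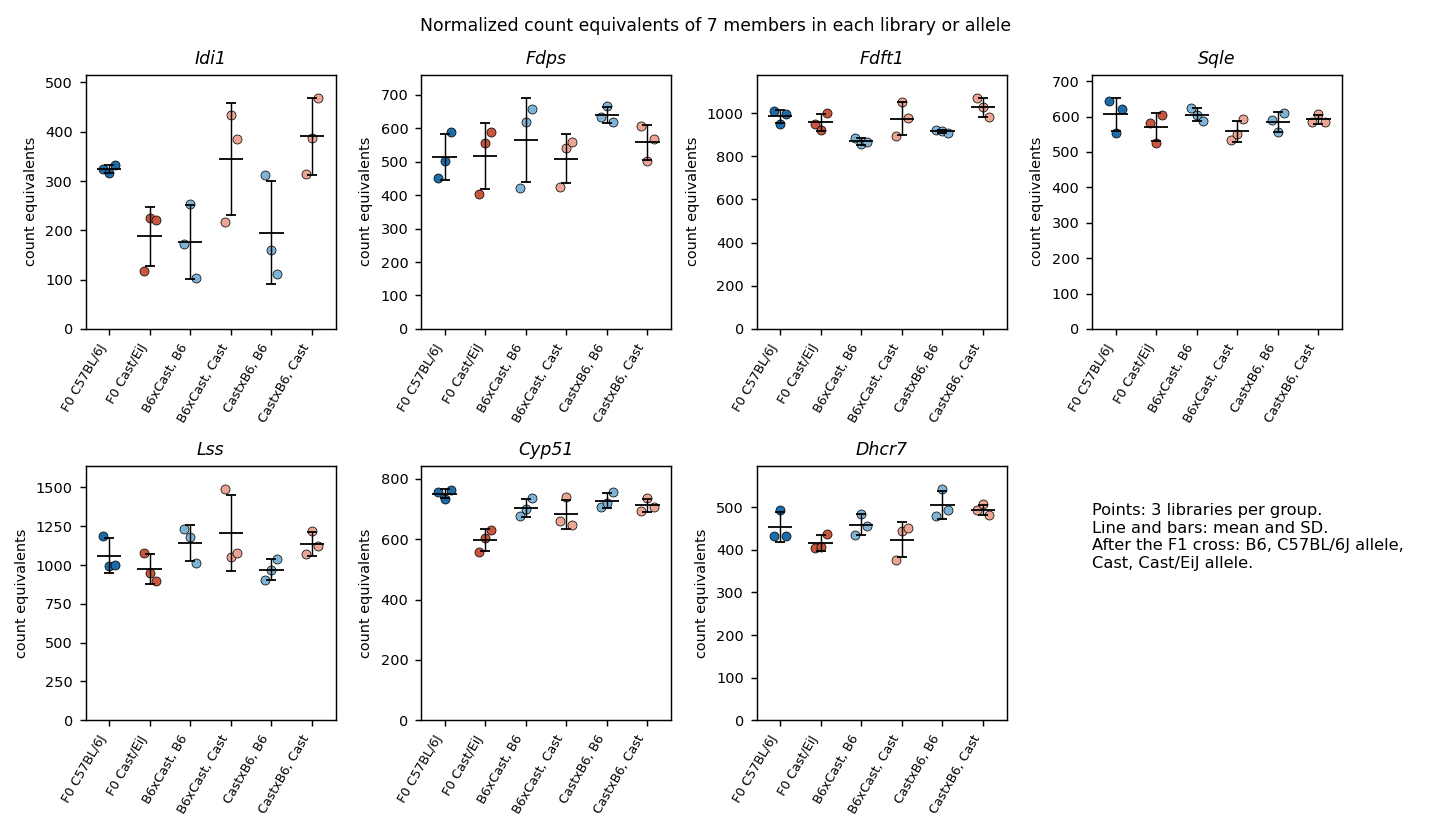
Count equivalents of the 7 testable members in each F0 library and each allele of each F1 library, with group means as bars. Cyp51 and Idi1 alone have F0 Cast/EiJ points all below the F0 C57BL/6J points, and every Cyp51 F1 point (647 or more) lies above every F0 Cast/EiJ point (629 or less).

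Within the F1 retinas the low Cast/EiJ level of Cyp51 was not seen on the Cast/EiJ allele. Its C57BL/6J allele measured 677, 700 and 735 in F1 B6xCast and 706, 721 and 756 in F1 CastxB6, and its Cast/EiJ allele 660, 738 and 647, and 693, 735 and 707. The alleles overlapped, with the Cast/EiJ allele lower in 4 of 6 libraries and a log2 difference of -0.04 (SE 0.044, adjusted p = 0.485). Among the 783 to 1175 allele-specific unique hits per library, the Cast/EiJ share was 46.4% to 50.8%, beside 49.5% to 49.6% over all polymorphic autosomal genes. The trans difference of Cyp51, its F0 log2 difference minus its F1 allelic one, was -0.29 (SE 0.080, adjusted p = 0.0218). That call was lost without F0 C57BL/6J replicate 3 (adjusted p = 0.0539), F0 Cast/EiJ replicate 1 (0.0699) or F1 CastxB6 replicate 2 (0.0585), while the F0 call was kept in all 15 alternatives.

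Fdft1, not called between the strains, had a higher Cast/EiJ allele in F1. The C57BL/6J allele measured 887, 856 and 868 in F1 B6xCast and 923, 915 and 909 in F1 CastxB6. The Cast/EiJ allele measured 896, 1050 and 976, and 1070, 1030 and 980, above its partner in 6 of 6 libraries. The log2 difference was 0.16 (SE 0.041, adjusted p = 0.00363), or 1.12-fold, and it was kept in all 22 alternatives. The Cast/EiJ share of 475 to 705 unique hits per library was 50.2% to 55.1%. The trans difference of -0.20 (SE 0.074) had an adjusted p of 0.0791, and passed the threshold with edgeR on unique hits (-0.31, adjusted p = 0.0229). It also passed in limma with weighting by the posterior SD (-0.21, adjusted p = 0.0313) and without F1 B6xCast replicate 1 (-0.24, 0.0299).

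The 4 members Sqle, Lss, Dhcr7 and Fdps were called neither between alleles nor in trans. Over the 12 F1 allele values, Sqle ran from 534 to 624, Lss from 906 to 1490, Dhcr7 from 376 to 543 and Fdps from 420 to 667. Their allelic log2 differences were -0.05 for Sqle (adjusted p = 0.444), 0.15 for Lss (0.137), -0.07 for Dhcr7 (0.293) and -0.17 for Fdps (0.215). The Cast/EiJ allele was higher in 5 of 6 libraries for Lss and lower in 5 of 6 for Dhcr7 and for Fdps, so these members did not lean one way. Their trans differences were -0.04 for Sqle (adjusted p = 0.824), -0.27 for Lss (0.228), -0.05 for Dhcr7 (0.806) and 0.16 for Fdps (0.636). With edgeR on unique hits Lss was called in both (adjusted p = 0.0424 in each). Fdps had only 128 to 197 allele-specific hits per library, the fewest of these 4. Lss overlaps a transcript on the opposite strand, 4930483K19Rik, and the 3′ end of Fdft1 overlaps Ctsb, and since the libraries keep no strand, reads there cannot be assigned to one gene.

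Fdft1 and Idi1 were thus the 2 of 7 members called between alleles, both higher from Cast/EiJ, beside a background of 47% of 13414 genes called, 23.5% higher and 23.5% lower. Cyp51 and Idi1 were the 2 of 7 called in trans, both lower, beside 14% of genes called and 8.31% called lower. The members' median log2 difference was -0.04 between alleles, against 0.0014 over all genes tested, and -0.20 in trans, against -0.0035. Trans and F0 values share the F0 libraries, so they are not separate evidence of one direction.

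**Figure D3:**
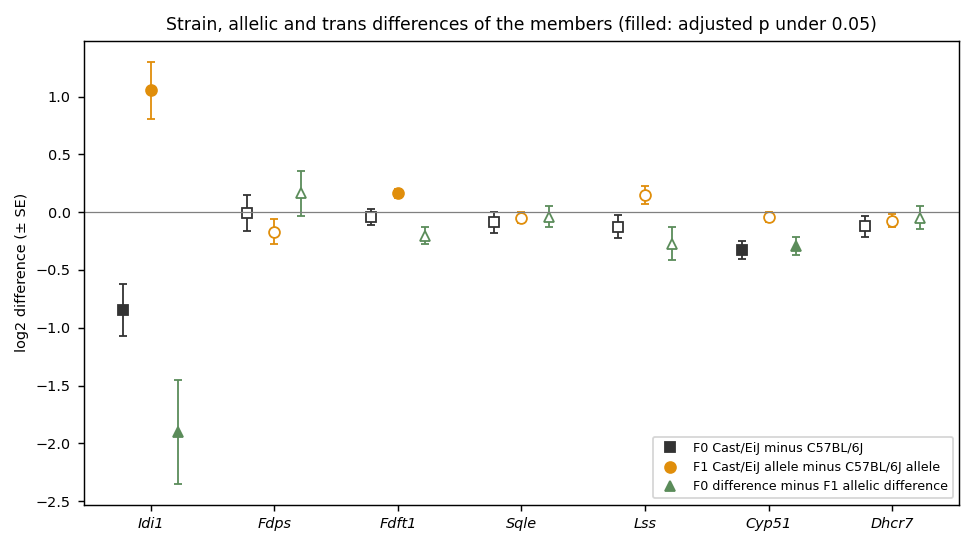
Log2 differences with SE of the 7 testable members between F0 strains, between F1 alleles and in trans. F0 values all lie below 0 (Fdps at only -0.0051), whereas F1 allelic values lie on both sides. Idi1 reaches -0.85, 1.05 and -1.9 in the 3 comparisons.

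Idi1 has a near-identical copy to which the same reads can be assigned, and its calls were lost when the pair was counted as 1 gene. The pseudogene Gm13502 (ENSMUSG00000083287, chr2:53553406-53555881, minus strand) is 99.3% identical to the Idi1 transcript over 2494 of its 2866 bases. Unique hits made up 12.4% of the Idi1 count equivalents in F0 and 4.49% in F1, where other testable members had 70.0% to 79.2% and 14.7% to 69.7%. In F0 C57BL/6J only 43, 42 and 37 hits were unique to Idi1, and in F0 Cast/EiJ 15, 29 and 25. In F1 the Idi1 C57BL/6J allele measured 172, 253 and 104, then 312, 160 and 112 count equivalents, and the Cast/EiJ allele 217, 433 and 385, then 314, 388 and 469. The Cast/EiJ allele was higher in 6 of 6 libraries, a log2 difference of 1.05 (SE 0.25, adjusted p = 0.00205), opposite in sign to the F0 difference, which gave a trans difference of -1.9 (SE 0.45, adjusted p = 0.00904). The model that holds F0 and F1 together left the F0 difference of Idi1 at an adjusted p of 0.0878.

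The values of Gm13502 ran opposite to those of Idi1. It measured 218, 250 and 276 in F0 C57BL/6J and 287, 294 and 337 in F0 Cast/EiJ (log2 difference 0.31, adjusted p = 0.081), and in F1 133 to 267 on the Cast/EiJ allele against 229 to 410 on the C57BL/6J allele, an allelic log2 difference of -0.68 (SE 0.14, adjusted p = 0.000698). Added together, the pair measured 542, 567 and 609 in F0 C57BL/6J and 405, 519 and 557 in F0 Cast/EiJ, which overlap. On this sum the F0 difference was -0.23 (SE 0.12, adjusted p = 0.189), the allelic difference 0.19 (SE 0.096, adjusted p = 0.111) and the trans difference -0.42 (SE 0.18, adjusted p = 0.126). This alternative was chosen after seeing the data. With it, 1 member remained called in each of the F0, allelic and trans comparisons.

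**Figure D4:**
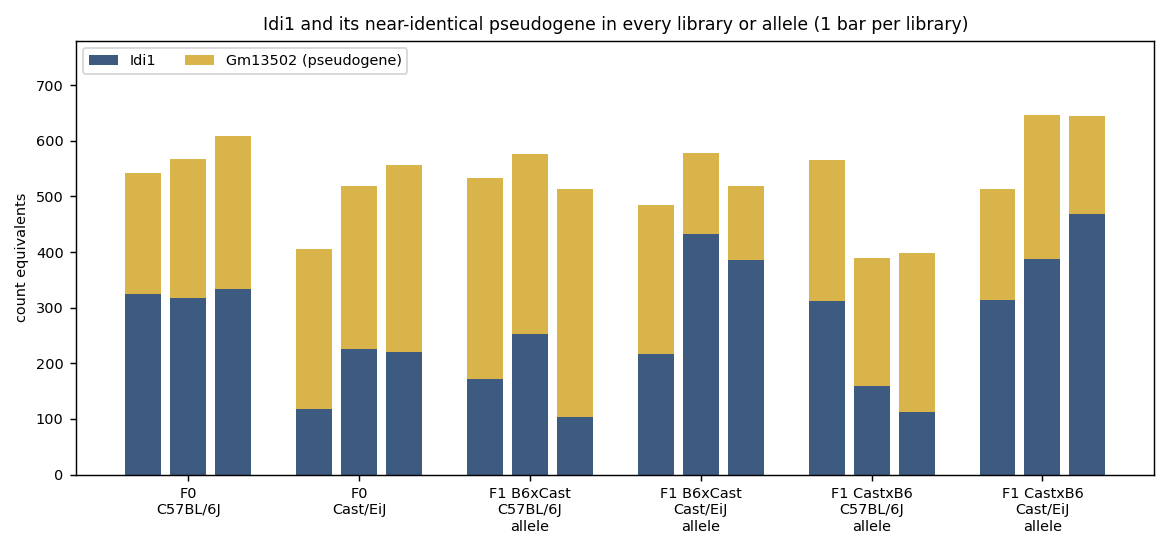
Count equivalents of Idi1, its pseudogene Gm13502 and their sum in each F0 library and F1 allele. Idi1 and Gm13502 lean in opposite directions between strains and alleles, though the F0 difference of Gm13502 was not called (limma adjusted p = 0.081). The F0 sums overlap (542 to 609 and 405 to 557).

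Among copies of other members with a deposited gene of their own, levels were low. The Fdps copy Gm3571 on chromosome 10 is 98.8% identical and reached at most 0.757 count equivalents, and the Fdft1 copy Gm6781 on chromosome 14 is 97.4% identical and reached at most 6.35. Further Fdps copies lie within the Adcy2 gene, whose value cannot be assigned to the copy, and at places with no deposited gene, where no reads were measured. Another Idi1 copy, on chromosome 5 in pieces 96.1% and 96.6% identical, also has no deposited gene.

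No member was called by the parent that gave an allele or by the direction of the cross. Of 7 members, 0 were called for parent of origin (0 at an unadjusted p under 0.05, and 0 with edgeR), beside 0.492% of genes called. The mean of both F1 alleles against the parental average also gave 0 calls (0 at an unadjusted p under 0.05), beside 12.2%, with a median log2 of 0.11 over the members and 0.0069 over all genes. F0 libraries were sequenced in 1 lane and F1 libraries in 2, so generation and lane cannot be told apart in that comparison. Between the crosses 0 members were called, beside 0.0816%, and at an unadjusted p under 0.05 there was 1, Dhcr7, 0.18 higher in F1 CastxB6 (limma adjusted p = 1.0).

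Insig1 and Stard4, which answer to SREBP-2 like the members, were lower in F0 Cast/EiJ and had negative trans differences. Their list, SREBP-2 control and uptake, did not lean that way in trans. Of its 9 genes tested, 4 were called in F0 (3 lower, 1 higher, median -0.011), beside 33.8% of all genes. In trans 3 were called (2 lower, 1 higher, median 0.066), beside 14%, with 5 values positive and 4 negative. Insig1, which retains Scap in the endoplasmic reticulum when sterol is plentiful, measured 1020, 1030 and 1030 in F0 C57BL/6J and 731, 797 and 825 in F0 Cast/EiJ, and 910 to 1090 over the F1 alleles. Every F1 allele value of Insig1 thus lay above all F0 Cast/EiJ values. Its F0 difference was -0.39 (SE 0.073, adjusted p = 0.0038), its allelic difference 0.08 (adjusted p = 0.131) and its trans difference -0.47 (SE 0.077, adjusted p = 0.000515), and both calls were kept under every alternative. Stard4, a sterol carrier, measured 322, 392 and 373 against 200, 243 and 254, with an F0 difference of -0.64 (adjusted p = 0.00473), an allelic one of 0.32 in the opposite direction (0.00812) and a trans one of -0.96 (0.000794).

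Srebf2, Scap and Srebf1 were not called in F0 by limma. Srebf2, which encodes SREBP-2, differed by 0.09 in F0 (adjusted p = 0.398), 0.02 between alleles (0.711) and 0.07 in trans (0.584), and Scap by -0.01, -0.12 and 0.11 (adjusted p = 0.946, 0.163 and 0.617). Srebf1, which encodes the lipogenic SREBP-1, differed by -0.19 in F0 (adjusted p = 0.125), or -0.28 with edgeR on unique hits, which called it (adjusted p = 0.0146), and was higher from the Cast/EiJ allele by 0.34 (0.00198), with a trans difference of -0.53 (0.0215) that was lost without F0 C57BL/6J replicate 2 (0.0686) or F0 Cast/EiJ replicate 1 (0.0547) or 2 (0.0639).

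Across 55 other genes of the pathway lists, 50 could be tested in the F0, allelic and trans comparisons. Between the F0 strains 16 were called, 3 higher and 13 lower in Cast/EiJ, with a median log2 of -0.014. Between alleles 30 were called, 15 in each direction, with a median of -0.03, and in trans 9, of which 2 were higher and 7 lower, with a median of -0.08. The background shares above are 33.8%, 47% and 14%. No gene of the lists was called for parent of origin or between crosses, and 7 were called for the F1 level. In both F0 and trans, which share the F0 libraries, 5 genes were called: Insig1, Stard4, Scd2, Elovl6 and Abca1.

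Of 4 other genes on the way from acetyl-CoA to lanosterol, 2 were called in F0, 4 between alleles and 0 in trans. Pmvk, phosphomevalonate kinase, measured 293, 311 and 338 in F0 C57BL/6J and 114, 112 and 126 in F0 Cast/EiJ, a difference of -1.41 (SE 0.11, adjusted p = 2.6e-05), and its alleles differed by -1.11 (6.78e-10). Acat2, the cytosolic thiolase that begins the pathway, was higher in Cast/EiJ, by 0.43 in F0 (adjusted p = 0.00692) and 0.45 between alleles (7.64e-05). Mvk and Mvd, the kinase and decarboxylase of mevalonate, were called between alleles, 0.31 and 0.28 higher from Cast/EiJ, and not in F0 or trans. The Mvd call was lost without F1 CastxB6 replicate 3 (adjusted p = 0.0594). After lanosterol, Hsd17b7, a sterol ketone reductase, was lower in Cast/EiJ (-1.11 in F0 and -0.71 between alleles), Sc5d was lower between alleles (-0.37) and Lbr higher (0.18), with 0 of 6 genes called in trans. The Lbr call was lost without F1 B6xCast replicate 1 or 3 or F1 CastxB6 replicate 1 or 2 (adjusted p from 0.0514 to 0.096).

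Among other genes of sterol control, Npc1, a lysosomal cholesterol exporter, was higher in Cast/EiJ in F0 (0.49) and between alleles (0.38), and Mylip, a ubiquitin ligase of the liver X receptor pathway, lower in both (-0.45 and -0.29). Mbtps1, a protease that releases SREBP, was lower from the Cast/EiJ allele (-0.23) with a trans difference of 0.31 (adjusted p = 0.00516). Of the isoprenoid branches, Dhdds was higher in F0 (0.36) and between alleles (0.49), Fntb higher between alleles (0.27), and Icmt lower between alleles (-0.22) with a trans difference of 0.29 (adjusted p = 0.00227).

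Of the 14 genes of the SREBP-1 list, which serve lipid synthesis, 4 were called in F0, beside 33.8% of all genes, and the list median was -0.011. The 4 were lower in Cast/EiJ, namely Scd2 (-0.53), Elovl6 (-0.39), Lpin1 (-0.42) and Pnpla3 (-0.52). Scd2, a stearoyl-CoA desaturase, and Elovl6, a fatty acid elongase, were also called in trans, at -0.42 (adjusted p = 0.000347) and -0.40 (0.00424). Between alleles, Acly, Fasn, Fads1 and Me1 were higher from Cast/EiJ by 0.27, 0.23, 0.17 and 0.30, and Acss2, Lpin1, Pnpla3 and Scd2 lower, at -0.22, -0.24, -0.34 and -0.11. Of the 9 genes tested in the liver X receptor and oxysterol list (median -0.24 in F0), Nr1h3, Abca1, Cyp27a1 and Apoe were lower in F0 (-1.71, -0.53, -1.07 and -0.25). The cholesterol exporters Abca1 and Abcg1 had trans differences of -0.30 (adjusted p = 0.0289) and -0.33 (0.000485), and between alleles stood at -0.23 and 0.39. Nr1h3, Cyp27a1, Cyp46a1 and Nr1h2 were lower from the Cast/EiJ allele (-1.10, -0.63, -0.34 and -0.16), and Apoe was higher (0.26). Leaving out 1 library ended the F0 calls of Apoe (F0 C57BL/6J replicate 2 or 3, F0 Cast/EiJ replicate 1 or 2, adjusted p up to 0.138) and the trans call of Abca1 (5 of 12 libraries, up to 0.0845). Between alleles it ended those of Scd2 (F1 CastxB6 replicate 2, adjusted p = 0.1), Fasn (F1 CastxB6 replicate 2 or 3, up to 0.0557), Cyp46a1 (F1 B6xCast replicate 2, F1 CastxB6 replicate 2 or 3, up to 0.129), Nr1h2 (replicate 2 or 3 of either cross, up to 0.106) and Apoe (F1 B6xCast replicate 2, F1 CastxB6 replicate 1 or 3, up to 0.228). The allelic value of Apoe ran from 0.14 (without F1 B6xCast replicate 2) to 0.72 (weighted by posterior SD), and its trans difference of -0.51 (adjusted p = 0.0625) was called with edgeR on unique hits (-0.53, 0.000149), with the weighting (-0.98, 0.0257) and without F1 B6xCast replicate 1 or 3 or F1 CastxB6 replicate 2. The allelic value of Fasn was 0.0092 with the weighting (adjusted p = 0.946), 0.04 on the FPKM scale (0.672) and 0.099 with edgeR (0.403). That of Acss2 was -0.039 with edgeR (adjusted p = 0.803) and was not called with the weighting (0.132) or on the FPKM scale (0.0554).

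**Figure D5:**
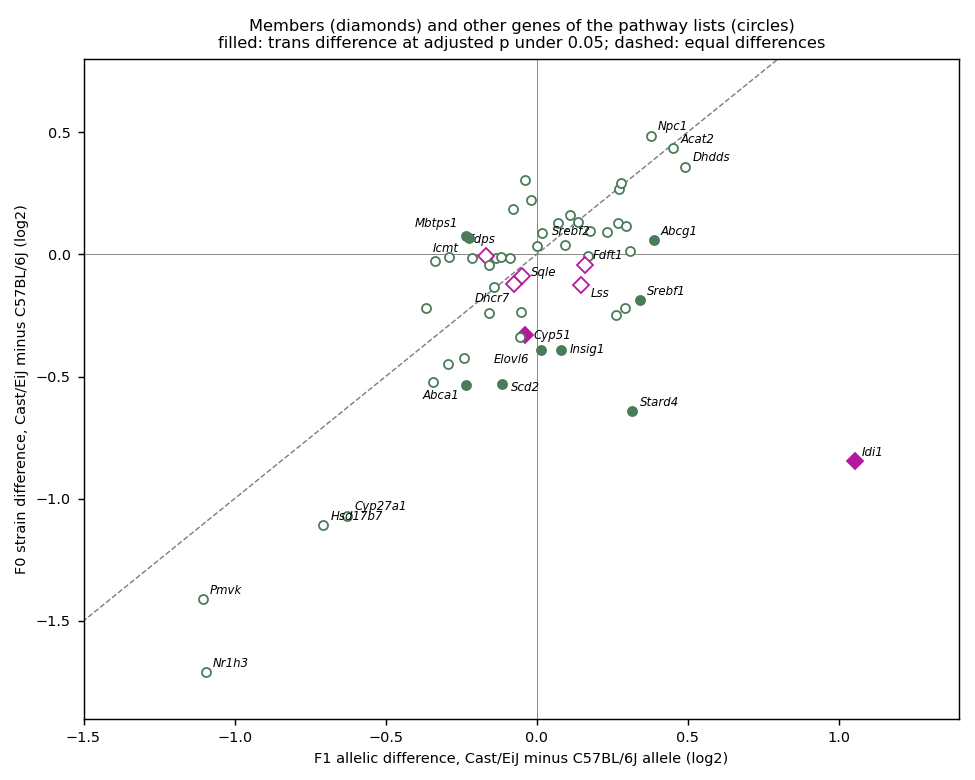
F0 log2 difference against F1 allelic log2 difference for the testable members and other pathway genes, with filled points for genes called in trans. Pmvk and Hsd17b7 lie low on both axes, whereas Insig1, Stard4, Cyp51 and Idi1 are low in F0 and not between alleles.

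Markers of several cell types differed between the same F0 libraries. From F0 levels of whole retina alone, fewer cells of a type cannot be told apart from less RNA per cell. Mueller glia markers, 6 genes, summed to 47620 to 58080 count equivalents in F0 C57BL/6J and 43910 to 50260 in F0 Cast/EiJ, with Glul and Vim lower and Aqp4 higher. Ganglion cell markers summed to 11290 to 12310 against 7574 to 8403 (3 of 5 tested were lower), and cone markers to 11610 to 13330 against 8370 to 9370 (1 of 3 lower). Myelinating oligodendrocyte markers, including Mbp, summed to 672 to 722 against 361 to 395 (2 of 2 tested were lower), and retinal pigment epithelium markers to 256 to 296 against 115 to 137 (2 of 6 lower). Amacrine markers summed higher in Cast/EiJ, at 14470 to 15570 against 11320 to 12920 (2 of 4 higher). Of the bipolar markers 1 of 4 was lower, of the astrocyte markers 1 of 3 lower, of the blood markers 1 of 2 lower, of the lens markers 0 of 3 called, and of the muscle and connective markers 1 of 2 higher. Between F1 alleles, beside 47% of all genes called, 2 of 2 oligodendrocyte markers were lower from Cast/EiJ (median log2 -1.29, and -1.53 in F0). Of ganglion cell markers 3 of 5 were lower there, and of cone markers 1 of 3. Mueller glia markers had 3 lower and 1 higher, and amacrine and pigment epithelium markers 1 each way. In trans, beside 14% of all genes called, 0 of 2 oligodendrocyte markers were called. Lower in trans were 1 of 3 cone, 2 of 5 pigment epithelium and 2 of 5 ganglion cell markers. Higher were 1 of 5 ganglion cell, 1 of 6 Mueller glia and 2 of 4 amacrine markers. The part of these cell types in the F0 and trans differences of Cyp51, Idi1 and the other pathway genes was not tested.

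The mean standardised profile of the 8 members over the 12 libraries was most like that of Egflam (Pearson's r = 0.964), and 5430437P03Rik (0.898), Haus2 (0.896) and Zfp213 (0.892) were also among the 5 highest of the 10242 autosomal genes averaging 100 count equivalents or more. The median r of those genes was -0.106. From the 55 pathway genes the most alike were Insig1 (0.865), Stard4 (0.808), Nr1h3 (0.772), Elovl6 (0.772) and Hsd17b7 (0.77). Without the 2 members that the reads resolve poorly, Hmgcs1 and Idi1, Insig1 and Stard4 stood at 0.86 and 0.795 and Egflam at 0.954, with Rpp14 (0.943), 5430437P03Rik (0.907) and Hgsnat (0.889) also among the 5 highest. These values describe 12 libraries that share their group structure and carry no test.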

How the data were processed

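Retinal RNA of 12 libraries was compared, 3 in each of 4 groups, grouped by the labels. The authors trimmed read pairs with Trim Galore 0.2.6, aligned them with Bowtie 0.12.9 to Ensembl 67 transcripts carrying the alleles of 1 strain (F0) or both (F1), on NCBI37, and ran MMSEQ for the estimates. The signal values, named count equivalents here, were normalised between libraries by the authors and deposited to 3 digits, with column totals of 12648792 to 13843914. The authors deposited expression as a natural log, whose exponential was taken as FPKM, and a score beside it, the posterior SD. Unique hits are a count deposited by the authors without normalisation. They give the depth, and their small number limits the precision for Idi1. Shares of hits cover counting error only. Of the deposited tables, 36 columns of per-library values and 14 of the authors' model results (posterior probabilities, a Bayes factor) were not used.

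Limma 3.58.1 was fitted on log2(count equivalents + 1), so changes of low genes are understated, with Benjamini-Hochberg adjustment over all genes tested and calls at an adjusted p under 0.05. The F0 comparison took the 14452 autosomal genes that reached 10 count equivalents in 3 or more of the 6 libraries. Allelic, trans and parent of origin differences came from 1 model of F0 libraries and F1 alleles, with the library as a block (duplicateCorrelation, statmod 1.5.0, consensus correlation 0.1354). It covered 13414 autosomal genes that are polymorphic and average 10 or more unique hits per F1 library, both alleles added. The F1 level and cross differences used the mean of both alleles over 14710 genes. For the F1 level the alleles were averaged before the log, and the F0 strains after it. The alternatives were edgeR 4.0.16 on unique hits, DESeq2 1.42.0 on rounded count equivalents for F0, FPKM, weighting by the posterior SD, TMM factors, other filters and pseudocounts, a replicate block and each library left out. Adding Idi1 and Gm13502 was chosen after seeing the data.

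The libraries are described as separate pools of animals. The members, pathway lists, marker lists and tests were chosen with earlier results of these data known. Genes were named by a rule: all members, every pathway gene called in F0, between alleles or in trans, the regulators Srebf2, Srebf1, Insig1 and Scap whatever their values, the 5 most alike profiles, and copies of members. Some genes the rule names are not reported here and were left out of the lists. On simulated data with 200 genes changed 2-fold, 61% were recovered between the F0 strains (13789 genes), 96% between alleles and 81.5% in trans. R 4.3.3 and Python 3.11.15 were used.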

Additional observations from a re-analysis of the deposited data

Results flagged for a closer look

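For 2 members and 9 other genes of the pathway lists the F0 strain difference and the F1 allelic difference were not alike, as tested by the interaction in the model that holds both (limma, adjusted p under 0.05). The trans difference, F0 minus allelic on the log2 scale, was -1.9 for Idi1 and -0.29 for Cyp51. It was also negative for Stard4 (-0.96), Srebf1 (-0.53), Insig1 (-0.47), Scd2 (-0.42), Elovl6 (-0.40), Abcg1 (-0.33) and Abca1 (-0.30), and positive for Mbtps1 (0.31) and Icmt (0.29). For Idi1 the value rests on 15 to 43 unique hits per F0 library and 14 to 33 per F1 library and fell to -0.42 (adjusted p = 0.126) once Gm13502 was added to it. In no member did 1 of the 6 F1 libraries stand apart from the others in its allelic ratio by Dixon's criterion.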

How the results depend on the processing

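The 3 members with a call differed in how it depended on the processing. Cyp51 in F0 and Fdft1 between alleles were called under every alternative run. With Idi1 and Gm13502 added, 1 member was called in each of F0, allelic and trans (2 in each as reported). EdgeR on unique hits gave 1 in F0 (Cyp51) and 4 in trans (Cyp51, Fdft1, Idi1 and Lss), with a member median of -0.28 in trans. Requiring an average of 50 unique hits per F1 library (both alleles added), which removes Idi1, left 1 between alleles and 1 in trans, with a trans median of -0.13. On the FPKM scale the F0 member median was -0.047. Leaving out 1 library gave 1 to 2 members called in F0 and 1 to 3 in trans, and moved the member median from 0.053 to 0.12 for the F1 level and from 0.013 to 0.099 between crosses. Without single libraries 9 to 19 genes were called between crosses. Genes called for parent of origin numbered 39 with edgeR and 29 with weighting by posterior SD, against 66, and the weighted member median was 0.0055. The cause of these shifts was not tested, apart from the smaller gene set under the stricter filter.

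Replicate numbers were not taken to pair the samples. Same-numbered libraries of the F0 strains correlated at 0.299, 0.0355 and 0.116 in their deviations, F1 B6xCast libraries correlated positively with those of their number in both F0 strains (0.034 to 0.287), and pairs with F1 CastxB6 ran from -0.114 to 0.0194. With a replicate block the F0 strain difference was called in 6376 genes (4887 without), and the members called were the same as without it in F0, between alleles and in trans, while Acly gained an F0 call (0.27, adjusted p = 0.00235). Of 2839 values of single genes under an alternative, 2769 stayed on their side of the threshold, 55 lost and 15 gained a call. The sign changed in 80, all without a call on either side, and 0 called values reversed. The number of unique hits limits Idi1 (4 to 25 per F1 allele). Hmgcs1 has none at any depth, since its copies are identical in sequence.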

Other observations

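The unique hits of Gm13502 ran against its count equivalents between the F1 alleles. Per library, 0 to 3 hits were unique to the C57BL/6J allele and 8 to 23 to the Cast/EiJ allele, a Cast/EiJ share of 87.5% to 100% of 8 to 24 hits, while the count equivalents were higher from the C57BL/6J allele in 5 of 6 libraries. For Idi1 the Cast/EiJ share of 14 to 33 hits was 64.3% to 86.2%, with count equivalents higher from the Cast/EiJ allele in 6 of 6. Over both genes the Cast/EiJ share of 32 to 51 hits was 78.9% to 90.9%, and the count equivalents of the sum were higher from the Cast/EiJ allele in 4 of 6 libraries.

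Set against the parental average, the F1 level was higher for Stard4 (0.30, limma adjusted p = 0.0466), Pmvk (0.22, 0.0436), Elovl6 (0.21, 0.00588) and Insig1 (0.15, 0.0267), and lower for Scd1 (-0.33, 0.0114), Abca1 (-0.32, 0.000313) and Mbtps1 (-0.11, 0.0342). These are the 7 of 50 pathway genes called there, beside 12.2% of all genes tested. The alleles were averaged before the log and the F0 strains after it, so a large strain difference raises this value by construction. For Pmvk the F0 means were 314 in C57BL/6J and 117 in Cast/EiJ, and the F1 means 226 and 223 count equivalents. F0 and F1 libraries also differed in sequencing lanes.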
